A study of Mus musculus with 8 samples.

Results

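The transient early genes of the Cd73-positive fraction at P2 were 42 of the 21805 genes measured in mouse retina. They were chosen by their own levels, measured as FPKM, fragments scaled to exon length and to the mapped total, with 1 added. In Cd73-positive cells (Cd73PC) at P2, each was over 1.5 times its level in the Cd73-negative cells (Cd73NC) of the same stage. In that library each was also at least 2 times its level in whole retina at E18, a criterion that 4.27% of all genes met when taken alone. Each was then below 0.75 times the P2 level in Cd73PC at P5, and below 0.75 times the P5 level at P8. These 4 criteria were met by 64 genes, and 22 of them, Otx2 among them, were left out because P8 Cd73NC was over 1.5 times P8 Cd73PC. All differences that these criteria use describe the choice and carry no test.

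RNA of retina from ICR mice was sequenced in 8 libraries, 1 for each condition. Whole retinas were taken on embryonic days 15 and 18 (E15 and E18), and on postnatal days 2, 5 and 8 (P2, P5 and P8) retinas were pooled and sorted by the surface enzyme Cd73 into Cd73PC and Cd73NC. The labels name no agent or transgene, and no condition had a second library, so replicate error is unknown. Retinas at E15 and E18 were not sorted, and the stages before P2 and after differ in this as well as in age.

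Cd73, the product of Nt5e, converts extracellular AMP to adenosine and appears on rod precursors soon after they leave the cell cycle. In rodents most rods are born around birth. A newborn rod moves to the outer layer, takes up the Crx, Nrl and Nr2e3 program, and only later makes the outer segment and the synapse, so that the first postnatal days hold cells between exit from division and full rod identity.

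The fractions were checked against the genes that define them. For Nt5e the FPKM at P2, P5 and P8 was 97.3, 131 and 124 in the positive fraction and 2.43, 31.4 and 9.38 in the negative one. All 18 rod markers on the list used were over 1.5 times higher in P2 Cd73PC than in P2 Cd73NC, as were 8.56% of all genes. At these stages they summed to an FPKM of 7545, 15710 and 24537 in the positive fraction and to 167, 1859 and 1714 in the negative one. Markers of other cells also differed. Of 10 microglia markers, 9 were over 1.5 times higher in P2 Cd73PC, with a summed FPKM of 60.7 against 10.5 in P2 Cd73NC and none at 0 in P2 Cd73PC, and of 11 pigment epithelium and lens markers 7 were over 1.5 times higher, with 81.0 against 1.88 and Rpe65 at 0. Their part in the levels of the transient genes was not tested. In Cd73PC the microglia sum was 50.4 at P5 and 161 at P8, and the pigment epithelium and lens sum was 76.8 and 128. Read counts are not in the tables, and the depth relative to E18, read from the steps of weakly expressed genes, ran from 0.965 in E15 to 1.62 in P2 Cd73PC. In bulk RNA, fewer cells of a type and less RNA per cell cannot be told apart.

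Over the 42 genes the median FPKM was 4.93 at E15 and 5.53 at E18. In the positive fraction it stood at 24.3, 12.3 and 6.27 on P2, P5 and P8, and in the negative fraction at 5.25, 10.9 and 3.78. The choice placed P2 Cd73PC above every other library except E15 and P5 Cd73NC, which it left free. P2 Cd73PC was the highest of the 8 libraries for 39 genes, while Gm3414, Paqr3 and St14 were highest in P5 Cd73NC. In P2 Cd73PC the genes ranged from an FPKM of 1.61 (Gpr25) to 951 (Fabp7). Of these, 33 genes were at 10 or more, 10 of them at 50 or more, and 5 genes were under 5. By the choice, all 42 were over 1.5 times higher in P2 Cd73PC than in P2 Cd73NC, as were 8.56% of all genes, and 0.193% of all genes met every criterion. On FPKM + 1 the difference was over 2-fold for 38 genes and over 4-fold for 20. Its median was 1.81 on the log2 scale, from 0.77 for Armcx3 to 3.12 for Ccnd2.

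**Figure D1:**
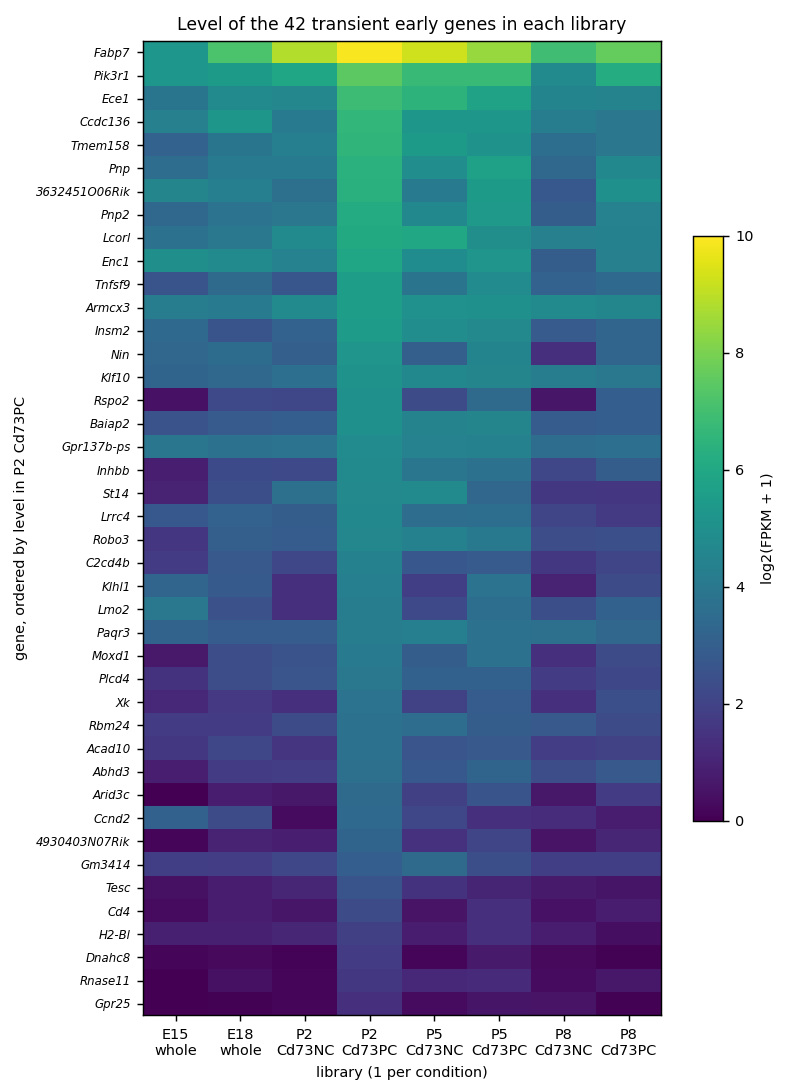
Level of the 42 genes in each of the 8 libraries, as log2(FPKM + 1) from 0 to 10, with genes on the vertical axis ordered by their level in P2 Cd73PC and libraries on the horizontal axis. The P2 Cd73PC column is the brightest for 39 of the 42 genes, and the P5 Cd73NC column is for the other 3.

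The heat map of all 42 genes shows how wide the range of levels was, with Fabp7 the highest of the 42 genes in every library, though at E15 it was close to Pik3r1. It also shows that the later levels in Cd73PC differed from gene to gene. The share of the P2 Cd73PC level that was left in P5 Cd73PC had a median of 54.4%, from 15.7% for Ccnd2 to 73.7% for Gpr137b-ps. In P8 Cd73PC it had a median of 23.5%, from 1.85% for Gpr25 to 50.4% for Armcx3. For 23 genes the larger step was from P2 to P5, and for 19 it was from P5 to P8. A level below 0.75 times the earlier one was found in 15% of all genes at the first step and in 8.86% at the second. By the choice, 31 of the 42 genes were over 1.5 times lower in P5 than in P2 Cd73PC, as were 8.57% of all genes. Only 6 members were below 0.5 at both steps: 4930403N07Rik, Ccdc136, Ece1, Lrrc4, St14 and Tmem158.

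Several genes lay close to a limit. Armcx3, with a P2 Cd73PC over P2 Cd73NC ratio of 1.71, was the member nearest that limit, and Snhg3, at 1.48, was the nearest gene outside it that met the others. For P2 Cd73PC over E18, H2-Bl was just inside at 2.01 and Cd70 just outside at 1.88. For P5 over P2 in Cd73PC the ratio was 0.747 for Gpr137b-ps and 0.754 for Acbd7. For P8 over P5 it was 0.7495 for Armcx3 and 0.758 for Tmsb15b2. At P8 the ratio of Cd73NC to Cd73PC was 1.42 for Ccnd2, which was kept, and 1.52 for Gm5089, which was not. The falls were the criteria that most often kept a gene out alone, since 65 genes failed only the first and 62 only the second, against 5 genes for the P2 fractions, 23 for E18 and 22 for P8.

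The deposited tables give a lower and an upper bound of each FPKM, which describe the estimate within a library and not the spread between animals. The bounds of P2 Cd73PC lay above those of P2 Cd73NC and of E18 for all 42 genes. They did not overlap those of P5 Cd73PC for 40 genes, the exceptions being H2-Bl and Rnase11. Those of P5 and P8 Cd73PC did not overlap for 38 genes, the exceptions being Abhd3, Paqr3, Rnase11 and Tesc. The choice used the same comparisons and so favours these counts, and the share over all genes was not counted. For 10 members the FPKM itself lay outside its bounds in at least 1 library, so the bounds are a rough guide.

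Promoter sequences of RefSeq (GRCm38.p6) are shown for a few members because the fate regulators of photoreceptors bind short, known motifs. The shared course of the members in Cd73PC was set by the choice. Windows of 300 bases, 250 before and 50 after a transcript start, were given for 28 of the 42 members, with 39 windows in all. TAATCC, the core bound by Crx and Otx2, was present on either strand in 3 of these windows (7.69%) and in 7.06% of 32851 windows over all genes. CAGATG, an E-box of the kind that NeuroD proteins bind, was present in 10 windows (25.6%) and in 17.2% of all. The 3 members with TAATCC and Fabp7, the most highly expressed member, are printed from 250 bases before the start to the base before it, 5′ to 3′ along the gene. Capitals mark TAATCC, which reads GGATTA where it lies on the reverse strand, and in Fabp7 they mark CAGATG, which reads CATCTG on the reverse strand. The windows are chr1:74542639-74542888 on the + strand for Plcd4, chr9:37433176-37433425 on the - strand for Robo3, chr14:49783384-49783633 on the - strand for 3632451O06Rik (Armh4 in RefSeq), and chr10:57784673-57784922 on the + strand for Fabp7.
Plcd4: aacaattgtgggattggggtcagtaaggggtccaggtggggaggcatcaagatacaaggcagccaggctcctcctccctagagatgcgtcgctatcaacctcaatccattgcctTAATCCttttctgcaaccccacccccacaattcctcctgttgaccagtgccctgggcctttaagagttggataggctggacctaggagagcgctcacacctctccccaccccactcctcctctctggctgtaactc
Robo3: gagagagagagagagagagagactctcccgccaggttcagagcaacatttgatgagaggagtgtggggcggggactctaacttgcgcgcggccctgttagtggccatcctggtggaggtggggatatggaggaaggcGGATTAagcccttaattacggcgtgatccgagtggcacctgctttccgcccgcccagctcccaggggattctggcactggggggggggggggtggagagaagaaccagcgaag
3632451O06Rik: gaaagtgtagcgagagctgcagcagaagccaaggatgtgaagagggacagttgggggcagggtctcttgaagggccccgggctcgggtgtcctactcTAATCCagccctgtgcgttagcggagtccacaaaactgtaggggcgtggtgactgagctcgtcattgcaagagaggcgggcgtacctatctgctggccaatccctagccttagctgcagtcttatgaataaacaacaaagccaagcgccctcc
Fabp7: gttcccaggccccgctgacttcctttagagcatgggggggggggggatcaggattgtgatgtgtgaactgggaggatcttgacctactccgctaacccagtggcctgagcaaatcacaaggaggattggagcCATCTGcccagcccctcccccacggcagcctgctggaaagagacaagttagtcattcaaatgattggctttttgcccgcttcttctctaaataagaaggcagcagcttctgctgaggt

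The motif began 136 bases before the start in Plcd4, 113 in Robo3 and 153 in 3632451O06Rik, and the E-box of Fabp7 began 118 bases before it. The 10 members with CAGATG were C2cd4b, Fabp7, Gm3414, Insm2, Klhl1, Lcorl, Lrrc4, Pik3r1, Pnp and Rnase11. The general E-box CANNTG, which contains CAGATG, was in 34 of the 39 windows (87.2%) and in 72.3% of all. TGCTGA, part of the element bound by Nrl and other Maf proteins, was in 7 windows (17.9%, against 19.5% of all), and AGGTCA, the half-site of many nuclear receptors, was in 2 (5.13%, against 16.3%). A match is a run of letters and not a shown binding site, and with 39 windows these shares rest on few matches.

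Among genes of lipid and nucleotide metabolism, Fabp7 had the highest level of all members. Fabp7, the brain fatty acid-binding protein typical of radial glia and young glial cells, is on chromosome 10 between 57504729 and 57508256 (NCBI37/mm9). The FPKM of Fabp7 was 37.4 at E15 and 142 at E18, 458 (Cd73NC) and 951 (Cd73PC) for P2, 625 and 354 for P5, and 121 and 196 for P8. Fabp7 was thus strongly expressed in both fractions, with a P2 ratio of 2.08 on FPKM + 1, and Cd73NC was the higher fraction at P5. Of the 12 Müller glia and astrocyte markers listed, 4 were over 1.5 times higher in P2 Cd73PC than in P2 Cd73NC (8.56% of all genes). Another 6 were over 1.5 times lower (14.4% of all genes). The summed FPKM of the 12 markers was 1348 (Cd73NC) and 644 (Cd73PC) for P2, 1871 and 528 for P5, and 1434 and 426 for P8. Their part in the level of Fabp7 was not tested.

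Pnp and Pnp2, neighbouring genes for purine nucleoside phosphorylase, the enzyme that splits inosine and guanosine to their bases, followed the same course. Pnp had an FPKM of 11.1 at E15 and 15.9 at E18, 16.0 (Cd73NC) and 82.0 (Cd73PC) for P2, 28.9 and 51.9 for P5, and 9.22 and 24.7 for P8. Pnp2 had 9.0 and 13.1 before birth, 14.6 and 70.7 for P2, 24.6 and 41.5 for P5, and 6.71 and 20.5 for P8. Cd73PC was above Cd73NC at each stage for both, unlike Fabp7. The genes lie 2.729 kb apart on chromosome 14 (NCBI37/mm9; Pnp from 51563978 to 51573087, Pnp2 from 51575816 to 51584424). They also share sequence: 18.8% of the 36-base stretches of Pnp transcripts and 40.9% of those of Pnp2 occur in transcripts of other genes, mostly in each other. With reads of 36 bases the levels of the 2 genes are not independent measurements.

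The other metabolic enzymes had lower levels. Moxd1, a monooxygenase related to dopamine beta-hydroxylase, was at 0.619 at E15 and 4.18 at E18, 4.97 (Cd73NC) and 16.8 (Cd73PC) for P2, 6.62 and 12.2 for P5, and 1.58 and 4.04 for P8. Plcd4, a phospholipase C that cleaves the membrane lipid PIP2, reached 14.9 in P2 Cd73PC and had dropped to 3.46 by P8. Acad10, of the acyl-CoA dehydrogenase family, reached 12.1 and Abhd3, a phospholipid hydrolase, 11.9. Of these 4 enzymes Moxd1 kept Cd73PC over 1.5 times above Cd73NC at P5 and P8. Plcd4, Acad10 and Abhd3 were within 1.5-fold between the fractions at both stages.

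Secreted factors and their processing enzymes formed a second group. Rspo2, a secreted enhancer of Wnt signalling, was low outside P2 Cd73PC. Its FPKM was 0.415 at E15 and 3.59 at E18, 3.41 (Cd73NC) and 31.6 (Cd73PC) for P2, 3.82 and 9.89 for P5, and 0.532 and 6.84 for P8. The fractions differed 7.39-fold at P2, and Cd73PC was the higher one at all 3 stages. Inhbb, the beta B subunit of activins and inhibins, was at 0.778 and 3.72 in whole retina, at 3.6 and 25.7 in Cd73NC and Cd73PC at P2, at 14.4 and 12.4 at P5, and at 3.39 and 6.64 at P8. Tnfsf9, a ligand of the tumour necrosis factor family, was at 5.00 and 9.99 in whole retina, 5.34 and 47.1 for P2, 13.5 and 27.7 for P5, and 7.73 and 9.80 for P8. At P5 Inhbb was about level between the fractions, whereas Tnfsf9 was still over 1.5 times higher in Cd73PC.

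Ece1, which cleaves big endothelin to its active form, had an FPKM of 13.9 at E15 and 25.8 at E18, 24.0 (Cd73NC) and 114 (Cd73PC) for P2, 88.1 and 53.4 for P5, and 21.5 and 21.1 for P8. St14, the membrane serine protease matriptase, was at 0.971 and 4.30 in whole retina, 12.04 and 25.01 for P2, 25.9 and 8.89 for P5, and 2.06 and 1.98 for P8. Both proteases were higher in Cd73NC than in Cd73PC at P5 and level at P8. St14 had the lowest difference of all members between the P5 fractions, -1.44 on the log2 scale for Cd73PC minus Cd73NC.

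Receptors and surface proteins of neurite guidance and synapses were among the members. Robo3, of the Slit receptor family that steers commissural axons, had an FPKM of 1.96 at E15 and 7.05 at E18, 6.42 (Cd73NC) and 24.0 (Cd73PC) for P2, 20.2 and 15.6 for P5, and 4.21 and 4.50 for P8. Lrrc4, a netrin-G ligand of excitatory synapses, was at 5.71 and 7.76 in whole retina, 6.71 and 24.5 for P2, 10.8 and 11.3 for P5, and 3.29 and 2.29 for P8. Both were above their E18 level only in the P2 and P5 libraries of Cd73PC and in P5 Cd73NC. Cd4, the T cell coreceptor, and Gpr25, a G protein-coupled receptor, were weakly expressed, at 3.89 and 1.61 in P2 Cd73PC and at 0.506 and 0.0892 in P2 Cd73NC. As given above, 9 of 10 microglia markers were also over 1.5 times higher in P2 Cd73PC, among them C1qa at 15.3 against 2.44 and Csf1r at 4.94 against 0.697. At P5 and P8 Cd4 was at 0.458 and 0.410 in Cd73NC and at 1.60 and 0.704 in Cd73PC. The summed FPKM of the microglia markers at these stages was 74.8 and 211 in Cd73NC and 50.4 and 161 in Cd73PC. The part of microglia in the level of Cd4 was not tested.

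Of the proteins that relay signals inside the cell, Pik3r1 had the highest level. Pik3r1, a regulatory subunit of PI3K, was at 37.2 at E15 and 42.7 at E18, 59.0 (Cd73NC) and 179.9 (Cd73PC) for P2, 109.7 and 107.6 for P5, and 26.1 and 71.3 for P8. It was level between the fractions at P5 only. Baiap2, an adaptor that links membranes to actin, went from 31.4 in P2 Cd73PC to 22.3 at P5 and 6.90 at P8. Paqr3, a Golgi protein that holds Raf kinase, was at 17.5 in P2 Cd73PC and 18.9 in P5 Cd73NC, and Tesc, a calcium-binding protein, at 5.10 and 1.79. Baiap2 was level between the P5 fractions, and Tesc was at 1.79 or below in every library but P2 Cd73PC.

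Regulators of transcription and RNA made a further group. Insm2, a zinc-finger factor close to Insm1, had an FPKM of 9.63 at E15 and 5.09 at E18, 7.81 (Cd73NC) and 45.3 (Cd73PC) for P2, 28.8 and 25.1 for P5, and 6.25 and 8.57 for P8. The ratio of P2 Cd73PC to E18 was 7.60, the highest of the members. Lmo2, a LIM-only cofactor known from blood and vessel formation, was at 15.0 and 4.54 in whole retina, 1.64 and 17.7 for P2, 3.56 and 11.3 for P5, and 4.26 and 7.50 for P8. Lmo2 was higher in Cd73PC than in Cd73NC at each stage. The summed FPKM of the 10 endothelial and pericyte markers was 175 in Cd73NC and 41.7 in Cd73PC at P2, and that of the 7 erythroid markers 133 and 40.2. None of the 17 was over 1.5 times higher in P2 Cd73PC, as were 8.56% of all genes. Over 1.5 times lower were 3 of the 10 and 2 of the 7, as were 14.4% of all genes. These sums rested on few genes: Kdr was at 139 and 29.7 and Cldn5 at 29.1 and 5.17 in the P2 fractions, and Hba-a1 at 96.1 and 29.1. The part of these cells in the level of Lmo2 was not tested.

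Arid3c, of the AT-rich DNA-binding family, was listed at 0 at E15 and had an FPKM of 0.684 at E18, 0.574 (Cd73NC) and 10.003 (Cd73PC) for P2, 2.75 and 5.13 for P5, and 0.567 and 2.46 for P8. Lcorl, a nuclear protein related to the corepressor Lcor, was at 12.7 and 15.0 in whole retina, 25.5 and 65.6 for P2, 61.9 and 29.7 for P5, and 19.2 and 19.9 for P8. P5 Cd73NC was close to P2 Cd73PC for Lcorl, and for Arid3c it was far below. Gm3414, a noncoding gene, lies wholly inside Lcorl on chromosome 5 (NCBI37/mm9; 46110906 to 46118817 within 46091682 to 46248779), and at 6.99 in P2 Cd73PC and 10.1 in P5 Cd73NC it had a like course. The libraries do not mark strand, so reads within the span of Gm3414 could not be assigned by strand, and whether the exons of the 2 genes overlap was not examined. Klf10, a zinc-finger factor induced by TGF-beta, was at 33.2 in P2 and 15.1 in P8 Cd73PC, and Rbm24, an RNA-binding protein, at 12.2 and 3.94.

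Genes of the cell cycle, the centrosome and the cytoskeleton were represented by 5 members. Ccnd2, the cyclin D2 gene, had an FPKM of 7.50 at E15 and 3.85 at E18, 0.239 (Cd73NC) and 9.75 (Cd73PC) for P2, 3.34 and 1.53 for P5, and 1.44 and 0.722 for P8. Its P2 ratio of 8.67 was the highest of the members, and its level in P5 Cd73PC the lowest share of the peak. The retinal progenitor and cell cycle genes listed went the other way, with 17 of 18 over 1.5 times lower in P2 Cd73PC than in P2 Cd73NC, as were 14.4% of all genes, and none over 1.5 times higher. Nin, which encodes the centrosomal protein ninein, was at 8.98 and 10.7 in whole retina, 7.10 and 36.6 for P2, 7.16 and 22.1 for P5, and 1.53 and 8.68 for P8.

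Enc1 and Klhl1 encode kelch proteins that bind actin. Enc1 was at 30.8 at E15 and 25.8 at E18, 20.7 (Cd73NC) and 58.1 (Cd73PC) for P2, 27.8 and 36.3 for P5, and 6.66 and 19.5 for P8. Klhl1 was at 8.47 and 6.18 in whole retina, 1.64 and 19.0 for P2, 2.62 and 13.1 for P5, and 0.959 and 3.91 for P8. Cd73PC was the higher fraction at all stages for Nin, Enc1 and Klhl1, and Klhl1 had the highest difference of all members between the P5 fractions, 1.96 on the log2 scale. Dnahc8, an axonemal dynein heavy chain (Dnah8 in RefSeq), reached 2.43 in P2 Cd73PC and was at 0.643 or below in all other libraries.

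Of the remaining members, Ccdc136 and Tmem158 had the highest levels. Ccdc136, a coiled-coil protein, was at 19.6 at E15 and 38.2 at E18, 16.8 (Cd73NC) and 97.2 (Cd73PC) for P2, 38.3 and 38.0 for P5, and 17.5 and 14.4 for P8. Tmem158, a membrane protein induced by Ras, was at 7.88 and 13.9 in whole retina, 18.8 and 93.3 for P2, 42.1 and 33.3 for P5, and 11.3 and 14.8 for P8. Cd73PC was no longer above Cd73NC at P5 for these 2 genes. For 3632451O06Rik it still was, with 22.7 and 18.7 in whole retina, 12.1 and 80.9 for P2, 16.1 and 43.2 for P5, and 5.81 and 31.3 for P8. In P8 Cd73PC it ended 0.72 above its E18 level on the log2 scale, and P8 Cd73NC was below that level. C2cd4b, a nuclear C2-domain protein, reached 19.8 in P2 Cd73PC and was at 6.29 in P5 Cd73PC, and 4930403N07Rik (Ccdc175 in RefSeq) reached 8.37 and was at 3.22. Armcx3, a mitochondrial protein, had the smallest contrast, at 46.0 in P2 Cd73PC and 26.6 in P2 Cd73NC. Xk, a membrane protein linked to the Kell antigen on red cells, was at 12.9 and 1.64 in those libraries. The pseudogenes Gpr137b-ps and H2-Bl reached 27.0 and 2.73 in P2 Cd73PC, and Rnase11, of the ribonuclease A family, reached 2.07.

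**Figure D2:**
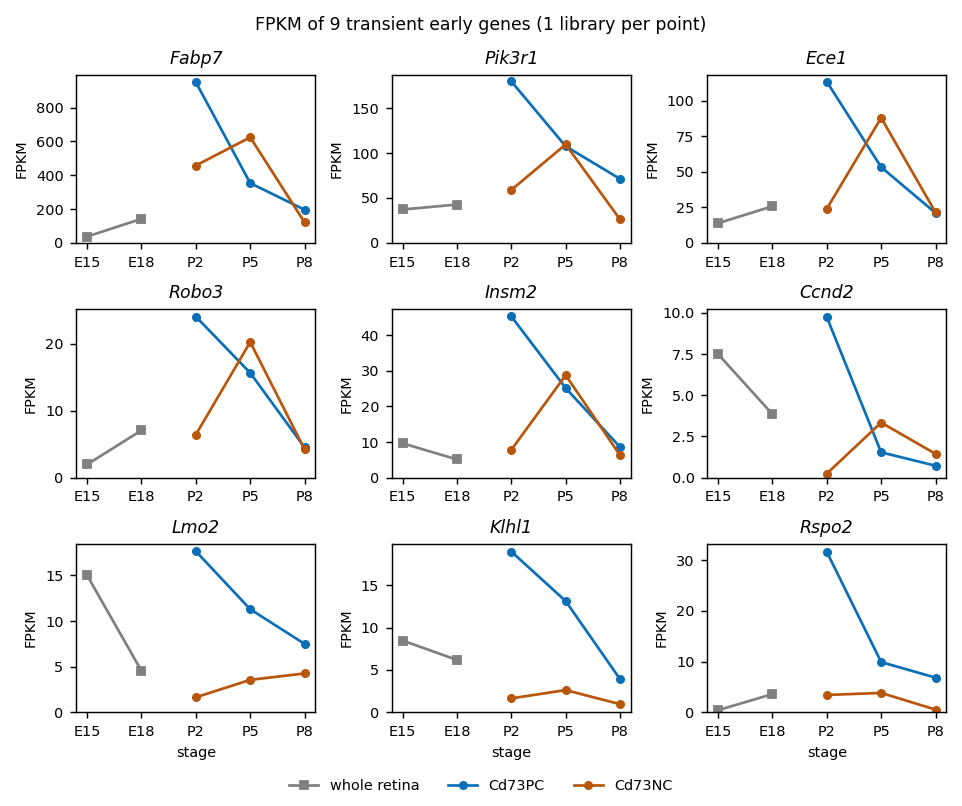
FPKM of 9 of the 42 genes by stage, with whole retina in grey, Cd73PC in blue and Cd73NC in orange, each point 1 library and each vertical axis starting at 0. For Ece1, Robo3 and Insm2 the Cd73NC line peaks at P5 and crosses the Cd73PC line, whereas for Lmo2, Klhl1 and Rspo2 it stays below the Cd73PC line at all stages.

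The plot of FPKM for 9 genes sets 2 kinds of course side by side. Fabp7, Pik3r1, Ece1, Robo3, Insm2 and Ccnd2 had a lower level in Cd73PC than in Cd73NC at P5, though for Pik3r1 and Insm2 the gap was small. For Lmo2, Klhl1 and Rspo2 no such crossing was seen. The courses were picked for the plot after their values were known.

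E15 whole retina was not used to choose the genes. From E15 to E18, before the sorted stages, 15 of the 42 genes (35.7%) were over 1.5 times higher, as were 4.6% of all genes, and 3 were over 1.5 times lower, as were 2.1% of all genes. The median difference was 0.41 on the log2 scale, against 0.04 for the 13411 genes with an FPKM of at least 1 in a library. E18 entered the choice as the lower side of a ratio, which favours genes with a low E18 level. The genes that were higher at E18 were led by Fabp7 (1.90), Rspo2 (1.70) and Moxd1 (1.68), and also included Ece1, Inhbb, Robo3, St14, Tmem158, Tnfsf9 and Ccdc136. Those that were lower were Lmo2 (-1.53), Ccnd2 (-0.81) and Insm2 (-0.80). For these 3 genes the P2 Cd73PC level followed a lower level at E18 than at E15. The same comparison was over 1.5 times higher for 27.2% of the 324 genes that met the same P2 criteria and then increased at both steps in Cd73PC, and for 54.5% of the 22 genes left out at P8.

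**Figure D3:**
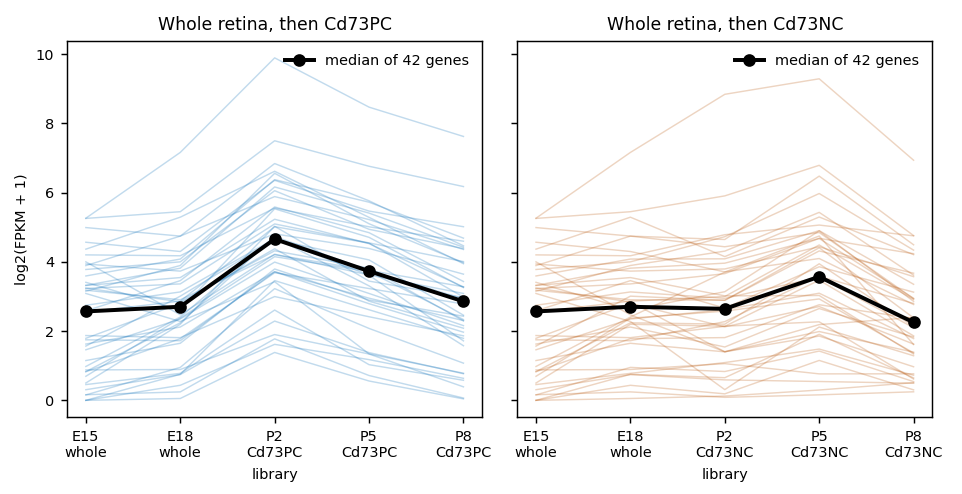
log2(FPKM + 1) of the 42 genes over the stages, with whole retina at E15 and E18 followed by Cd73PC (left) or Cd73NC (right), thin lines for genes and a thick line for their median. The median is highest at P2 on the left and at P5 on the right.

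P5 Cd73NC was the other library that the choice did not use. Here most of the genes stood above P2 Cd73NC. Of the 42 genes, 40 were higher in P5 Cd73NC than in P2 Cd73NC and 28 (66.7%) were over 1.5 times higher, as were 7.92% of all genes. None was over 1.5 times lower, as were 9.52% of all genes, and the exceptions below P2 were Cd4 and H2-Bl. The median difference was 0.80 on the log2 scale, from -0.30 for H2-Bl to 1.83 for Ece1, against -0.05 for genes with an FPKM of at least 1. P2 Cd73NC was used in the choice, which favours low values there. Against E15, a library that the choice did not use either, 31 of the 42 genes (73.8%) were over 1.5 times higher in P5 Cd73NC and 3 were over 1.5 times lower, as were 10.1% and 13.2% of all genes. The median of that difference was 1.27. It was not particular to the 42 genes. Over 1.5 times higher in P5 Cd73NC than at E15 were 80.2% of the 324 genes that rose at both steps in Cd73PC. The same held for 77.3% of the 22 left-out genes. E15 retina was not sorted, so the comparison also sets whole tissue against a fraction. As the plot of the courses by fraction shows, P5 was the highest of the 3 Cd73NC stages for 37 genes, P2 for 2 and P8 for 3. The choice limited the Cd73NC levels at P2 and P8 but not at P5, which favours this count. The share over all genes was not counted.

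The fraction markers moved in the same libraries. In Cd73NC, as given above, Nt5e and the summed rod markers were also far higher at P5 than at P2. The erythroid markers summed to 133, 2009 and 7007 and the microglia markers to 10.5, 74.8 and 211. Their part in the P5 Cd73NC levels of the 42 genes was not tested. The higher level in P5 than in P2 Cd73NC was shared with the 324 genes that kept increasing in Cd73PC, of which 75.9% were past 1.5-fold with a median of 1.05, and with the 22 left-out genes, of which 68.2% were past it with a median of 1.20.

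At P5 the genes were divided between the fractions, and their number on each side depended on the scaling. Cd73PC was above Cd73NC for 23 genes and below it for 19, and the median difference was 0.06 on the log2 scale, against -0.17 for genes with an FPKM of at least 1. It was over 1.5 times higher in Cd73PC for 13 genes (31.0%; 7.02% of all genes) and over 1.5 times lower for 7 (16.7%; 15.5% of all genes). The 13 were 3632451O06Rik, 4930403N07Rik, Arid3c, Cd4, Klhl1, Lmo2, Moxd1, Nin, Pnp, Pnp2, Rspo2, Tnfsf9 and Xk, and the 7 were Ccnd2, Ece1, Fabp7, Gm3414, Lcorl, Rbm24 and St14. Of the 324 genes that kept increasing, 88.6% were over 1.5 times higher in P5 Cd73PC with a median of 1.46. The P5 Cd73PC level had to be low for the transient genes and high for the increasing ones, so the choice itself favours this gap. Quantile normalization of the 8 libraries moved the median over all expressed genes from -0.17 to 0.00 and that of the 42 genes from 0.06 to 0.34, with 26 of them higher in Cd73PC and 16 lower. With upper-quartile scaling 29 were higher and 13 lower, and the median was 0.20.

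**Figure D4:**
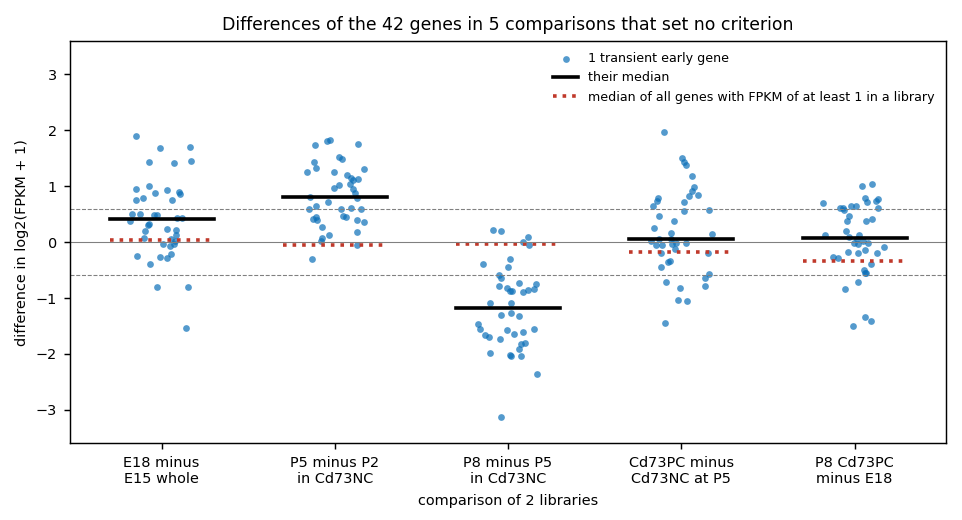
Differences in log2(FPKM + 1) of the 42 genes in 5 comparisons that set no criterion, each dot a gene, with the median of the 42 genes (black) and of all genes with an FPKM of at least 1 in a library (red, dotted) and dashed lines at 1.5-fold. The black median is 0.80 from P2 to P5 in Cd73NC and -1.17 from P5 to P8 in Cd73NC, while the red medians of these comparisons are -0.05 and -0.04.

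From P5 to P8 the levels in Cd73NC were lower again. The plot of differences shows 38 of the 42 genes below 0 in this comparison, 34 of them (81.0%) over 1.5 times lower, as were 7.77% of all genes, with a median of -1.17 on the log2 scale. St14 had the largest drop, -3.13, followed by Fabp7, -2.35. P8 Cd73NC could not be over 1.5 times a P8 Cd73PC level that was itself low, which favours such drops. Of the 22 left-out genes, which the same criterion placed on its other side, 36.4% were over 1.5 times lower. Among the 324 genes that kept increasing in Cd73PC, where P8 Cd73NC was not restricted, 12.7% were.

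At P8, 29 of the 42 genes were higher in Cd73PC and 13 were lower. All 22 left-out genes were lower in Cd73PC, so the choice itself favours the Cd73PC side. Over 1.5 times higher in P8 Cd73PC than in P8 Cd73NC were 14 genes (33.3%; 7.54% of all genes), and by the choice none was over 1.5 times lower, as were 18.6% of all genes. Of these 14, 10 had also been over 1.5 times higher at P5: 3632451O06Rik, Arid3c, Klhl1, Lmo2, Moxd1, Nin, Pnp, Pnp2, Rspo2 and Xk. The other 4 were Enc1, Fabp7, Inhbb and Pik3r1. The widest gap was that of Rspo2, 2.36 on the log2 scale.

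Between E18 whole retina, which was not sorted, and P8 Cd73PC the genes differed in both directions. P8 Cd73PC minus E18 had a median of 0.07 on the log2 scale over the 42 genes, and -0.33 over genes with an FPKM of at least 1. P8 Cd73PC was over 1.5 times above E18 for 12 genes (28.6%; 10.7% of all genes), with Arid3c (1.04) first and Abhd3 next, and over 1.5 times below it for 5 (11.9%; 24.9% of all genes), namely Ccnd2 (-1.49), Lrrc4 (-1.41), Ccdc136 (-1.34), St14 (-0.83) and C2cd4b (-0.71). Both libraries entered the choice, so the median and these counts are not free of it. P2 Cd73NC was over 1.5 times above E18 for 4 members (Armcx3, Fabp7, Lcorl and St14; 3.2% of all genes) and over 1.5 times below it for 7 (8.2% of all genes).

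Of the 19 photoreceptor fate regulators measured, 12 were over 1.5 times higher in P2 Cd73PC than in P2 Cd73NC (8.56% of all genes). Another 1, Mybl1, was over 1.5 times lower (14.4% of all genes). Otx2, Neurod4 and Mybl1 were below 0.75 times the earlier level at both steps in Cd73PC. Of all genes, 15% were below it at the first step and 8.86% at the second. Otx2, which sets photoreceptor fate, was the only one to meet the 4 criteria, with an FPKM of 349 (Cd73NC) and 777 (Cd73PC) for P2, 851 and 492 for P5, and 552 and 353 for P8. It thus had the early peak of the transient genes in Cd73PC but stayed higher in Cd73NC at P8. Prdm1, the repressor that keeps photoreceptors from bipolar fate, was at 107.9, 51.6 and 47.5 in Cd73PC and missed the limit from P5 to P8.

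Some relatives of the members were looked up after the members were known. Fabp5 was at 202, 81.0 and 47.6 in Cd73PC over the 3 stages and so dropped at both steps as Fabp7 did, but P2 Cd73PC was within 1.5-fold of P2 Cd73NC (145) and E18 (149). Insm1 was at 177 in P2 Cd73PC like Insm2 above its Cd73NC level, but at 144 in P8 Cd73PC, where Insm2 was at 8.57. Lmo1 was at 104 and 80.2 in these libraries against 17.7 and 7.50 for Lmo2. Robo1 and Robo2, which unlike Robo3 are classical Slit receptors, were at 2.79 and 14.9 in P2 Cd73PC and at 14.4 and 22.3 in P2 Cd73NC. Ccnd1, the main D cyclin of retinal progenitors, was at 272 in P2 Cd73PC and 1095 in P2 Cd73NC, opposite to Ccnd2. Pik3r3 was at 17.7 and 41.4 in these libraries, opposite to Pik3r1, and Pik3r2 at 23.1 and 24.1. Rspo1, Rspo3 and Rspo4 were at 0.132 or below in P2 Cd73PC, and Inhba was at 0.0309, so that Rspo2 and Inhbb were the expressed genes of their families there, beside Inha at 2.54.

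The 42 genes lay on 15 chromosomes. Within 1 Mb of each other were Pnp and Pnp2, Pnp2 and Rnase11 (84.77 kb), Lrrc4 and Ccdc136 (567.2 kb), and Lcorl and Gm3414. Annotated rows of another gene overlapped 9 members, among them Lrrc4 inside Snd1, Tnfsf9 with Gm11110, Paqr3 with Bmp2k, and Plcd4 with Usp37 and Zfp142, and reads in the shared bases could be counted for either. Of the 40 members with transcripts in the annotation used, 35 shared under 5% of their 36-base stretches with other genes. The exceptions were Pnp2, Pnp, Acad10 (24.4%, with Acad12), C2cd4b (16.0%, with C2cd4a) and H2-Bl (14.5%). RefSeq lists 39 of the members as protein coding, Gm3414 as a long noncoding RNA, and Gpr137b-ps and H2-Bl as transcribed pseudogenes.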

How the data were processed

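RNA was sequenced in single-end reads of 36 bases. Per the submitters' processing notes, CASAVA 1.8.2 and bcl2fastq 1.8.4 were used, reads were aligned to NCBI37/mm9 with TopHat2 2.0.8b, and the authors deposited FPKM with lower and upper bounds from Cufflinks 2.1.1 for 23021 rows per library. FPKM was divided by exon length and mapped fragments before deposit. Here 799 rows of small RNAs were left out, rows sharing a symbol were summed (21825 genes), and 20 genes with a failed estimate in a library were set aside, which left 21805. Ratios used FPKM + 1, which understates changes of weakly expressed genes. With 1 library per condition no test was run, and counts past 1.5-fold stand beside the share of all genes. The members, gene lists and comparisons were chosen with earlier results of these data known. Genes described in full were the 10 highest in P2 Cd73PC, the 10 with the largest P2 fraction difference, the 10 with the largest drop to P8, the 3 most different each way from E15 to E18 and between P5 fractions, and those at a limit; a few others were added by role after their values were seen. Start coordinates count from 0 in the tables, and 1 was added. Alternatives were other pseudocounts, scalings, filters and limits of the rule. P5 Cd73NC minus E15 was added after seeing the data. Python 3.11.15, numpy 2.4.6, pandas 2.3.3 and matplotlib 3.10.9 were used, and the scripts were tested on simulated data.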

Additional observations from a re-analysis of the deposited data

Results flagged for a closer look

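From P2 to P5 the medians of the 42 genes had opposite signs in the fractions: 0.80 on the log2 scale in Cd73NC and -0.825 in Cd73PC. For 21 genes the level was over 1.5 times lower in Cd73PC and over 1.5 times higher in Cd73NC, among them Arid3c, Acad10, C2cd4b and 4930403N07Rik. The drop in Cd73PC was set by the choice of the genes. The choice also favours low P2 Cd73NC levels, and so a higher level at P5. Of all genes, 8.57% were over 1.5 times lower in Cd73PC and 7.92% were over 1.5 times higher in Cd73NC. The share of all genes with both changes was not counted. Each value is 1 library, and the difference between the fractions was not tested.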

How the results depend on the processing

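The set depended most on its limits. It held 6 genes when both falls had to be below 0.5, 64 when genes higher in Cd73NC at P8 were kept, and 65 without the E18 criterion. With a pseudocount of 0.1 in place of 1 it held 63 genes, 38 of them among the 42, with a pseudocount of 0 it held 58 (37 shared), with upper-quartile scaling 38 (33 shared) and with quantile normalization 41 (29 shared). Ccnd2, Dnahc8, Gpr25 and H2-Bl were lost under both smaller pseudocounts. With the 42 genes kept, the medians kept their sign under each pseudocount, scaling and filter tried: 0.29 to 0.54 from E15 to E18, 0.80 to 1.09 from P2 to P5 in Cd73NC, 0.06 to 0.34 between the P5 fractions, and 1.26 to 1.55 for P5 Cd73NC minus E15. With a pseudocount of 0 the comparisons with E15 rested on 39 of the genes, since those at 0 were dropped. The value of 0.54 is from that setting. Of the P2 fraction differences of the named genes, 96 recomputed values stayed within 1.5-fold of the first, 8 did not, all for Arid3c, Ccnd2, 4930403N07Rik, Klhl1 or Lmo2 under a smaller pseudocount, and none changed sign. No library could be left out in turn, since each condition has 1. No paired analysis was possible because each comparison given here sets 1 library against 1 other. Both fractions of a stage came from the same retinas, and a fraction effect over the stages, blocked by stage, was not fitted. Absolute depth is unknown, so no interval or detection limit is given.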
